A study of Homo sapiens with 12 samples.

Results

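The genes described here are those whose response to an siRNA against GATA2 differed between 2 prostate cancer cell lines, Abl and MDVR. For each gene the effect in a line was the mean normalized log2 intensity of the siGATA2 arrays minus that of the control arrays, and the difference was the MDVR effect minus the Abl effect. A positive difference therefore means that the siGATA2 value sat higher, relative to its own control, in MDVR than in Abl. A probe entered when its detection p-value was under 0.05 on all 3 arrays of at least 1 group in each line, so that an effect could be measured in both. That left 16487 of 47323 probes (34.8%) and 9893 of 12630 named genes, each represented by its brightest kept probe.

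RNA from 12 samples was hybridised to Illumina BeadChip arrays, with 3 arrays in each of 4 groups. Abl is the LNCaP-abl line, grown without phenol red in 10% charcoal-stripped serum, which is depleted of steroids. MDVR is a LNCaP derivative that was kept in 25 µM enzalutamide, an androgen receptor antagonist also called MDV-3100, for over a year in 10% fetal bovine serum and held at 10 µM during the experiments. A Stealth siRNA at 25 nM, directed at GATA2 (siGATA2), or a non-targeting siRNA (siNT) was given to both lines, and RNA was taken after 72 h with an average integrity score of 9.9. Only 1 GATA2 siRNA is named in the labels, and nothing in them says that the 3 samples of a group came from separate cultures, so the p-values measure the spread between these samples. Serum and drug differed with the line, so a difference between Abl and MDVR cannot be told apart from a difference between their media.

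GATA2 is a zinc-finger transcription factor that binds the sequence GATA. In prostate cells it is known to open chromatin for the androgen receptor and to be needed for much of that receptor's transcription, including that of the receptor gene itself. Many genes of mitosis share a promoter layout in which a CCAAT box, bound by NF-Y, lies near a cell cycle genes homology region (CHR, TTTGAA). The CHR is bound by a repressor complex, DREAM, in resting cells and by activators with MYBL2 and FOXM1 in dividing cells.

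The promoters of 4 genes are printed because they belong to the genes on which the difference turned. TOP2A and CEP55 had the largest differences among genes that fell in both lines, CDC20 had the smallest adjusted p of the mitotic genes named, and ID3 had the largest difference of any gene detected on all 12 arrays. The sequences are RefSeq's for GRCh38.p14, from 250 bases before to 50 bases after the start of the gene, read 5′ to 3′ on the gene's strand. They lie at chr17:40417847-40418146 on the minus strand for TOP2A, chr10:93496362-93496661 on the plus strand for CEP55, chr1:43358731-43359030 on the plus strand for CDC20 and chr1:23559452-23559751 on the minus strand for ID3. Capitals mark each CHR match (TTTGAA, or TTCAAA when on the other strand) and each CCAAT box (CCAAT, or ATTGG when on the other strand).
TOP2A: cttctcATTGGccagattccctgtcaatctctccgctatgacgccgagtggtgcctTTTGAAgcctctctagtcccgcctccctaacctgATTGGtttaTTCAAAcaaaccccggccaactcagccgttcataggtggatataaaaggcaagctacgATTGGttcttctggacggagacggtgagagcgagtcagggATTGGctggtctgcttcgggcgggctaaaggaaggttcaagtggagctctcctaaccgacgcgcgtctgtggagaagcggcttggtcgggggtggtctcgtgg
CEP55: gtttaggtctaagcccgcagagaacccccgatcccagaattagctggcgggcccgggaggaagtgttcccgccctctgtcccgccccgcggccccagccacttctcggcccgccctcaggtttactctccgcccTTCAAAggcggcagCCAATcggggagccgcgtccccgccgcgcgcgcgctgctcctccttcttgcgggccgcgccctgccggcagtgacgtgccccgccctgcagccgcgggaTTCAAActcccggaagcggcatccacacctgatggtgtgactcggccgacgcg
CDC20: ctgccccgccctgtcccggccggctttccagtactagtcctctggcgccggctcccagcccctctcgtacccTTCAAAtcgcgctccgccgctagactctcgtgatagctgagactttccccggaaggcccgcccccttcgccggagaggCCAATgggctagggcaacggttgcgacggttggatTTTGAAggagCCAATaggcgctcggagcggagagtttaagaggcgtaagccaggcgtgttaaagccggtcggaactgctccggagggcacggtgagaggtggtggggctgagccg
ID3: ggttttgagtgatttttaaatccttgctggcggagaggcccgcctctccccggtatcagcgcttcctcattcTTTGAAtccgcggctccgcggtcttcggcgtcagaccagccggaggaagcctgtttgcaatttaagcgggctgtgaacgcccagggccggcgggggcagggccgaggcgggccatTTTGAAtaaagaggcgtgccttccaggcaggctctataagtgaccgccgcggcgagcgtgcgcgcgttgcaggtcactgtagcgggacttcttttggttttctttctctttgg
Each of the 4 promoters held 2 CHR matches. The CCAAT box was matched 4 times in TOP2A, 2 times in CDC20 and 1 time in CEP55, with 0 matches in ID3. No CHR match overlapped a CCAAT match. A GATA motif (AGATAA or TGATAA, either strand) was matched 0 times in each of the 4, which says only that these letters are absent from these windows.

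The target itself moved little. The GATA2 probe read 9.12, 8.80 and 8.82 on the Abl siNT arrays and 8.43, 8.58 and 8.48 on the Abl siGATA2 arrays, and in MDVR it read 8.88, 9.16 and 9.26 on the siNT arrays and 9.09, 8.80 and 8.86 on the siGATA2 arrays (normalized log2 intensity here and below). The groups were separate in Abl and overlapped in MDVR. By limma's moderated test the Abl effect was −0.41 (SE 0.12, adjusted p = 0.00904), the MDVR effect −0.18 (95% interval −0.42 to 0.06, adjusted p = 0.27), and their difference 0.23 (interval −0.11 to 0.58, adjusted p = 0.443). GATA2 mRNA at the siRNA's time point was thus not shown to have fallen in MDVR or to differ in its fall between the lines, and the MDVR groups are named by their labels.

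Between 19103 and 20513 probes were detected per array (40.4% to 43.3%), and arrays of a group correlated at 0.9891 to 0.9932. KRT8, KRT18, EPCAM, HOXB13, TMPRSS2 and FOLH1, markers of luminal prostate cells, were detected on all 12 arrays. KLK3 was detected only on the 3 MDVR siNT arrays. Of the markers of other cell types that the probe annotation names, COL1A2 was on 0 arrays, PDGFRB on 1, CD14 on 2, LYZ on 11 and ACTA2 on 12, and the basal and endothelial markers have no probe named in it. ACTA2, smooth muscle actin, was itself among the genes that differed. It read 8.30, 8.21 and 8.28 and then 8.48, 8.63 and 8.23 in Abl, and 6.67, 7.02 and 6.98 and then 6.10, 6.23 and 6.16 in MDVR. It fell in MDVR (−0.73) and was not called in Abl (0.18), with a difference of −0.91 (adjusted p = 0.00402), while LYZ had no called difference (0.65, adjusted p = 0.333). The part of other cell types in the results was not tested. In bulk RNA, fewer cells of a type and less RNA per cell cannot be told apart.

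Of the 9893 genes, 720 (7.28%) differed between the lines at an adjusted p under 0.05 by limma's moderated test. The MDVR effect lay above the Abl effect for 426 (4.31%) and below it for 294 (2.97%), and the difference was at least 2-fold for 163, of which 114 lay above and 49 below. The median standard error was 0.12 for an effect within a line and 0.17 for the difference. At an unadjusted p under 0.05 the count was 2142, and without Abl siGATA2 replicate 4, the array whose loss lowered it most, 459 genes were called. Within lines, siGATA2 lowered 1892 genes (19.1%) and raised 1711 (17.3%) in Abl, and lowered 1255 (12.7%) and raised 1347 (13.6%) in MDVR. Across genes the effects in the lines, which share no array, correlated at Pearson 0.639 and Spearman 0.59, a description over genes that are not independent of each other.

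**Figure D1:**
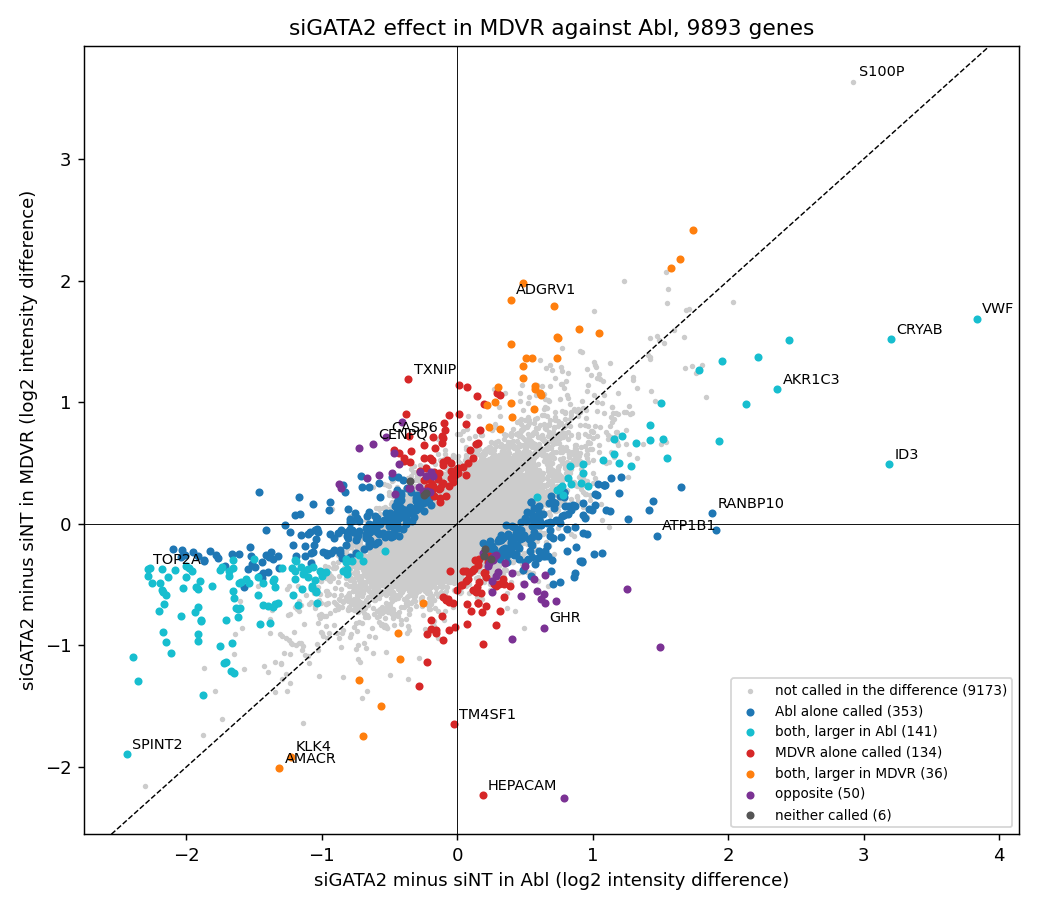
The siGATA2 effect in MDVR (vertical, log2) is plotted against that in Abl (horizontal, log2) for 9893 genes, with the 720 that differed between the lines coloured by class and equal effects on the dashed diagonal. The genes that fell in both lines but more in Abl lie left of the diagonal near −1.62 in Abl and −0.49 in MDVR at their medians, and 50 genes lie in the 2 quadrants of opposite sign.

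The 720 genes fell into classes by the test within each line. The largest class, 353 genes, was called in Abl and not in MDVR, 193 of them lower and 160 higher. For 297 of the 353 the 95% interval of the MDVR effect lay within 1.5-fold of no change either way, 165 of those lower in Abl and 132 higher. The reverse class, called in MDVR and not in Abl, held 134 genes, 61 lower and 73 higher, with 114 close to no change in Abl. Both lines moved the same way but further in Abl for 141 genes, 107 lower and 34 higher, and further in MDVR for 36, 8 lower and 28 higher. Opposite calls were made for 50 genes, 28 of them up in Abl and down in MDVR and 22 the other way round. The last 6 were called in the difference but in neither line. Below, a rise or fall in a line alone means that the other line's effect was not called, not that it was absent. A call in a single line is not itself a called difference. Of the 2783 genes called in 1 line only, 487 differed between the lines in the test of the difference. Likewise 177 of the 1661 genes called the same way in both lines differed in amount, whereas all 50 called in opposite directions did. The absolute effect was larger in Abl for 514 of the 720 and larger in MDVR for 206, while the median absolute effect over all genes was 0.23 in Abl and 0.19 in MDVR.

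Genes of mitosis fell further in Abl. Of 58 listed G2/M and mitosis genes 56 were tested, and 52 of them (92.9%, against 7.28% of all genes) differed between the lines, all 52 with the MDVR effect above the Abl effect. In Abl 54 of the 56 were lower after siGATA2 and 2 were not called, where 19.1% of all genes were lower. In MDVR 34 were lower and 22 were not called, where 12.7% of all genes were lower. The median effect of the list was −1.77 in Abl and −0.40 in MDVR, with a median difference of 1.26 against 0.02 over all genes. The control levels were close, with a list median of 8.17 on Abl siNT and 8.32 on MDVR siNT, and they parted after siGATA2 at 6.45 in Abl and 7.96 in MDVR. The median difference stayed above 0 under each alternative processing but depended on background correction, and it was 0.47 on the authors' normalized values. This list and the other gene lists were chosen with earlier results of these data known. Their shares therefore describe these arrays and are not an independent test.

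TOP2A, the DNA topoisomerase that untangles chromosomes before division, read 9.01, 9.25 and 8.91 on the Abl siNT arrays and 6.83, 6.90 and 6.59 after siGATA2. In MDVR it read 9.83, 9.97 and 9.97 and then 9.60, 9.55 and 9.50. The siNT and siGATA2 arrays were separate in both lines, with a gap of over 2 log2 units in Abl and under 1 in MDVR. The fall was 4.87-fold in Abl and 1.29-fold in MDVR (difference 1.91, SE 0.15, adjusted p = 3.7e-07). CEP55, which acts at the final separation of daughter cells, read 8.56, 8.81 and 8.57 and then 6.42, 6.57 and 6.17 in Abl, and 8.59, 8.85 and 8.97 and then 8.44, 8.38 and 8.51 in MDVR. All arrays of one treatment lay below those of the other in each line. Its fall was 4.81-fold in Abl and 1.28-fold in MDVR (difference 1.90, SE 0.18, adjusted p = 1.5e-06). CDC20, the activator of the ubiquitin ligase that starts anaphase, read 11.05, 11.13 and 11.16 and then 9.19, 9.16 and 8.99 in Abl, and 11.36, 11.35 and 11.45 and then 11.10, 11.07 and 10.95 in MDVR. Again no siGATA2 array reached a control array of its line, and the difference was 1.65 (SE 0.11, adjusted p = 7.1e-08). PTTG1, securin, which blocks the separation of sister chromatids until anaphase, fell by 2.18 in Abl and by 0.37 in MDVR (difference 1.80, SE 0.13, adjusted p = 2.0e-07). The probe of PTTG3P gave 1.85, but this gene is a near-identical copy of PTTG1 and their signals may not be separable.

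Other mitotic genes were called in Abl alone. DLGAP5, a spindle microtubule protein, read 8.56, 8.92 and 8.68 and then 6.60, 6.90 and 6.37 in Abl, against 8.83, 9.06 and 9.28 and then 8.76, 8.87 and 8.90 in MDVR. Its Abl groups were far apart and its MDVR groups overlapped (difference 1.89, SE 0.20, adjusted p = 4.8e-06). BIRC5, the chromosomal passenger protein survivin, had effects of −2.04 in Abl and −0.27 in MDVR (difference 1.77, adjusted p = 4.7e-06). NUF2, a kinetochore protein that binds microtubules, had effects of −2.01 and −0.26 (difference 1.75, adjusted p = 4.8e-06), and its siNT and siGATA2 arrays were separate in MDVR although that effect was not called. CENPW, a centromere protein, had −1.95 and −0.23 (difference 1.72, adjusted p = 6.6e-07). HMMR, which organises spindle poles, had −1.83 and −0.22 (difference 1.61, adjusted p = 4.4e-07). For each of these 5 genes the 95% interval in MDVR lay within 1.5-fold of no change. FOXM1, a transcription factor for this gene group, read 7.80, 7.74 and 7.67 and then 5.63, 5.90 and 5.56 in Abl, and 7.65, 8.04 and 7.77 and then 7.28, 6.98 and 6.93 in MDVR. It was lower in both lines, by 4.11-fold in Abl and 1.69-fold in MDVR (difference 1.28, SE 0.20, adjusted p = 4.7e-04).

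**Figure D2:**
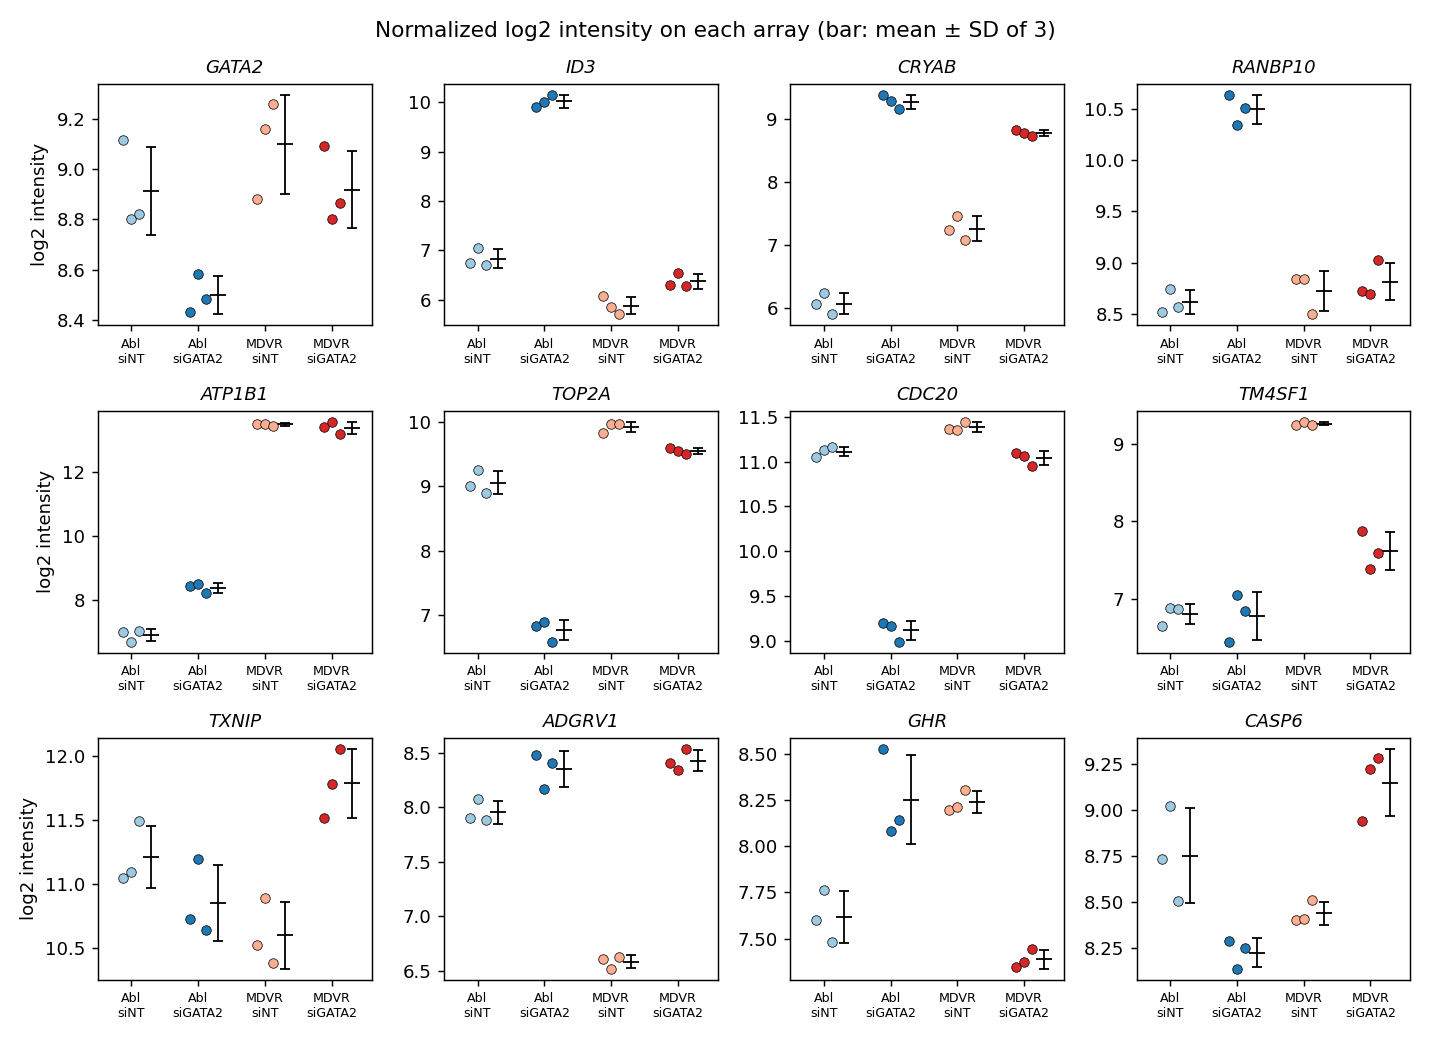
Normalized log2 intensity of 12 genes on each array (points, 3 per group) with the mean and SD of the group (bars). TOP2A and CDC20 fell far in Abl and little in MDVR, ID3 and CRYAB rose further in Abl, TM4SF1 and TXNIP were called in MDVR alone, and GHR and CASP6 moved in opposite directions.

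Genes of DNA replication moved the same way with smaller medians. Of 58 listed S phase genes 48 were tested and 24 (50%, against 7.28% of all genes) differed, all 24 with the MDVR effect above the Abl effect. In Abl 42 were lower and 1 higher, beside 19.1% and 17.3% of all genes. In MDVR 28 were lower and 0 higher, beside 12.7% and 13.6%. The median effects were −1.07 and −0.45. The helicase subunit CDC45 read 8.68, 8.69 and 8.83 and then 6.66, 6.77 and 6.32 in Abl, and 8.71, 8.83 and 9.00 and then 7.92, 7.81 and 7.87 in MDVR. It was clearly lower in both lines, by less in MDVR (difference 1.17, SE 0.17, adjusted p = 2.1e-04), as was its partner GINS2 (−1.89 in Abl and −0.80 in MDVR, adjusted p = 1.1e-04). PCNA, the sliding clamp of DNA polymerase, read 10.99, 11.06 and 11.09 and then 9.90, 10.02 and 9.97 in Abl, and 11.03, 11.10 and 11.20 and then 11.09, 10.98 and 11.05 in MDVR. Its control levels were alike and its MDVR groups overlapped (difference 1.01, SE 0.10, adjusted p = 3.4e-06). A second PCNA probe gave a difference of −0.19, and with the mean of its probes the call was lost (0.41, adjusted p = 0.0977).

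Both cell cycle lists together held 48 of the 107 genes that fell in both lines and further in Abl, which is 44.9% of that class and 46.2% of the 104 cell cycle genes tested. They held 28 of the 193 genes that fell in Abl alone (14.5% of the class, 26.9% of the lists). Of the 61 genes that fell in MDVR alone and the 8 that fell further in MDVR, 0 were on these lists.

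The share of promoters with the CHR letters varied between the classes. They were found in 28 of 42 promoters of the mitotic genes that differed (66.7%), in 32 of 85 of the class that fell in both lines and further in Abl (37.6%) and in 41 of 166 of the class that fell in Abl alone (24.7%). Among all genes tested the share was 782 of 8086 (9.67%), and among all 27305 promoters that RefSeq's table holds it was 15.4%. The CCAAT box was in 73.8% of the mitotic promoters and 71.8% of the class that fell further in Abl, against 38.2% of genes tested. An E2F motif (GCGGGAA, either strand, with the variants GGCGGAA and also GGCGCAA) was in 40.5% of the mitotic promoters and 24.3% of genes tested, and the GATA motif in 4.76% and 7.59%. The CHR was in 5 of the 27 promoters of genes that rose in both lines and further in Abl, and ID3 is among those 5. It was also in 5 of the 20 promoters of genes that rose in both lines and further in MDVR (25%), beside 24.7% of the class that fell in Abl alone. Mitotic genes are known to share the CHR layout, and 44.9% of the class that fell further in Abl was on the cell cycle lists. A high CHR share there follows from the genes held, and no conclusion on the difference between lines is drawn from it. These shares describe letters in fixed windows and were not tested.

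**Figure D3:**
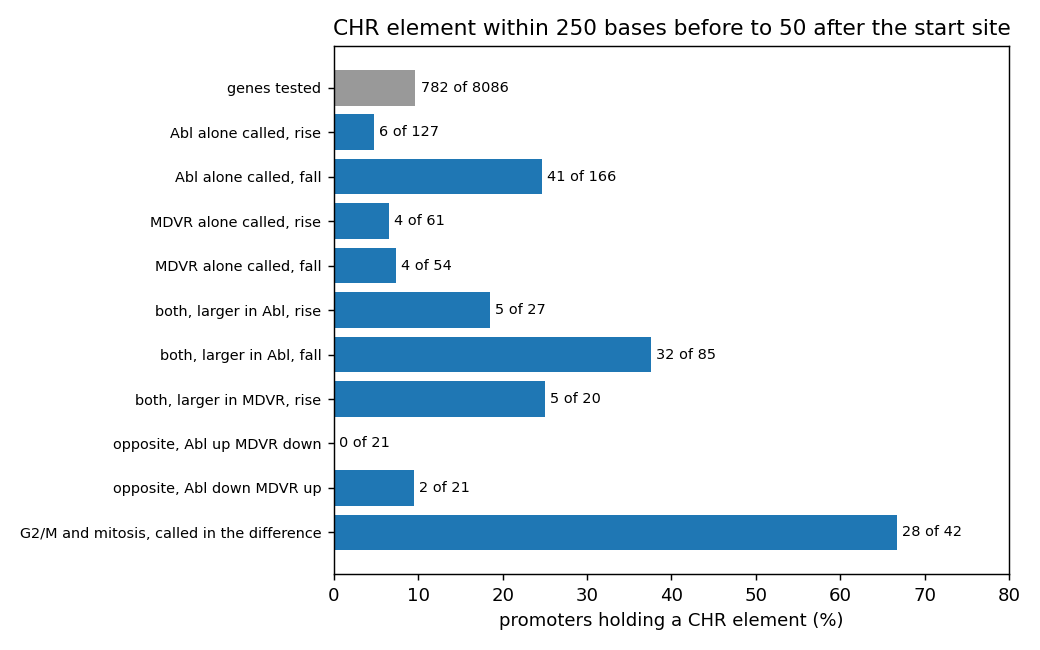
Share of promoters (%, horizontal) that hold a CHR match within 250 bases before to 50 bases after the start, for all genes tested (grey), for classes of genes that differed and for the mitotic genes that differed, with counts beside each bar. The share was 66.7% in the mitotic genes and 37.6% in genes that fell further in Abl, against 9.67% of genes tested. The class of 8 genes that fell further in MDVR is not drawn.

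MYC, the proliferation-linked transcription factor, read 10.76, 10.96 and 10.66 and then 9.89, 9.98 and 9.92 in Abl, and 11.28, 11.42 and 11.41 and then 11.23, 11.17 and 11.04 in MDVR. The arrays were separate in both lines by a wider gap in Abl, and the fall was called in Abl (−0.86) and not in MDVR (−0.22, adjusted p = 0.0597), with a difference of 0.65 (SE 0.12, adjusted p = 0.00183). Of the 37 MYC and ribosome biogenesis genes tested, only MYC and LYAR, a nucleolar protein, differed (5.41%), a share near the 7.28% of all genes tested. In Abl 28 of the 37 were lower (19.1% of all genes) and in MDVR 24 (12.7% of all genes), with median effects of −0.53 and −0.34.

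**Figure D4:**
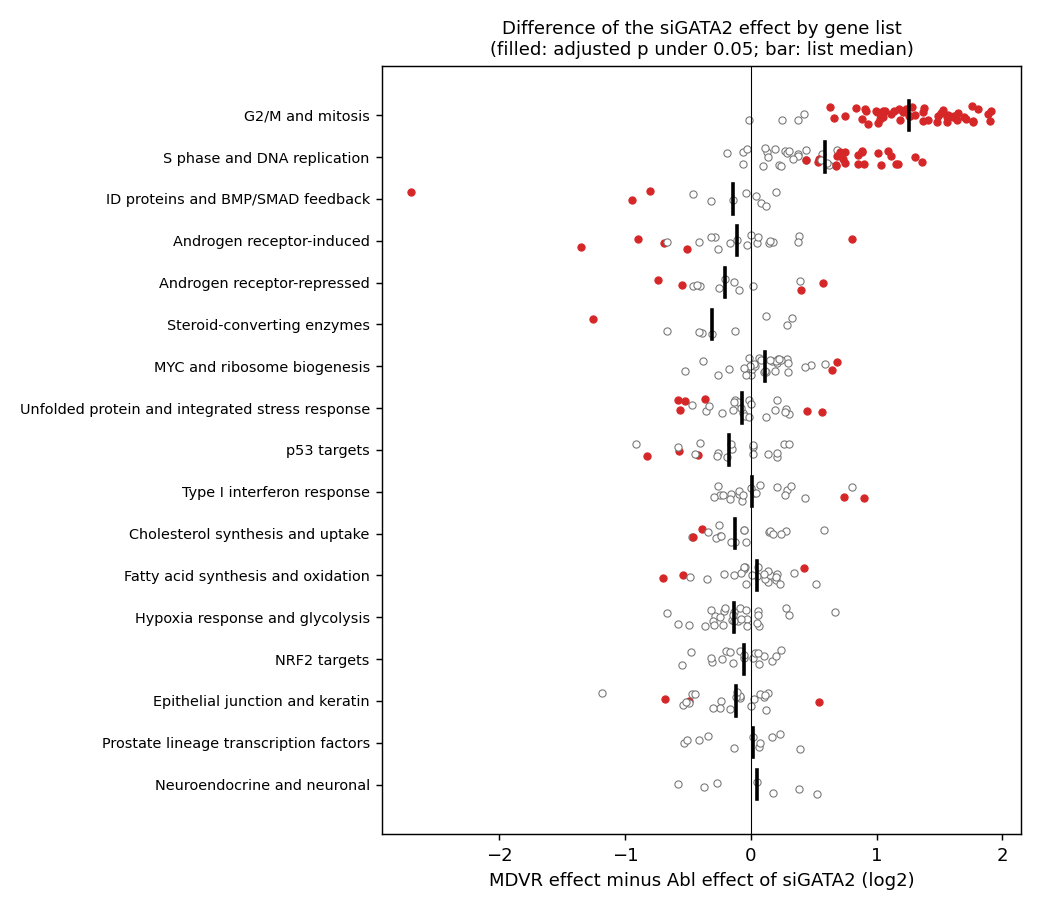
Difference of the siGATA2 effect (MDVR minus Abl, log2, horizontal) for each tested member of 17 gene lists, filled where the adjusted p was under 0.05, with the list median as a bar. The mitotic and S phase lists lie to the right with medians of 1.26 and 0.59, and the other 15 medians lie between −0.31 and 0.12.

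Among genes that rose in both lines and further in Abl, ID3 had the largest difference. ID proteins bind basic helix-loop-helix transcription factors and keep them off DNA, and they are classical targets of BMP and SMAD signalling. ID3 read 6.74, 7.05 and 6.70 on Abl siNT arrays and 9.89, 10.01 and 10.15 after siGATA2, against 6.08, 5.85 and 5.72 and then 6.30, 6.54 and 6.28 in MDVR. Each siGATA2 array lay above each control array of its line, by about 3 log2 units in Abl. The rise was 9.10-fold in Abl and 1.40-fold in MDVR (difference −2.70, SE 0.19, adjusted p = 2.0e-07). ID2 read 8.32, 8.66 and 8.71 and then 10.98, 10.85 and 11.21 in Abl, and 6.85, 6.98 and 7.29 and then 8.23, 8.74 and 8.68 in MDVR. It rose strongly in both lines, and the effects of 2.45 and 1.51 differed by −0.94 (SE 0.21, adjusted p = 0.00825). SMAD6, an inhibitory SMAD that dampens BMP signals, rose by 1.28 in Abl and 0.48 in MDVR (difference −0.80, adjusted p = 0.0114). Its call was also lost with the replicate block (adjusted p = 0.0666 and 0.105). ID3, ID2 and SMAD6 were the 3 members called of 11 tested on the BMP list (27.3%, against 7.28% of all genes). The median effect of the list was 0.48 in both lines.

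The small heat shock protein gene CRYAB read 6.06, 6.24 and 5.90 and then 9.38, 9.28 and 9.15 in Abl, and 7.23, 7.46 and 7.07 and then 8.82, 8.77 and 8.73 in MDVR. The siGATA2 levels were near each other in the lines while the Abl controls started lower, and the rise was 9.20-fold against 2.87-fold (difference −1.68, SE 0.17, adjusted p = 4.4e-06). VWF, von Willebrand factor, read 5.14, 4.79 and 5.08 and then 8.94, 8.85 and 8.73 in Abl, and 5.25, 4.63 and 4.74 and then 6.71, 6.63 and 6.33 in MDVR. It was detected on 1 of the 3 siNT arrays of each line and so entered through its siGATA2 arrays, and it rose in both lines, by 3.83 and 1.69 over that dim baseline (difference −2.15, SE 0.25, adjusted p = 1.9e-05). AKR1C3, the enzyme that makes testosterone from androstenedione, read 5.29, 5.47 and 5.34 and then 7.46, 7.96 and 7.76 in Abl, and 8.15, 7.74 and 7.94 and then 8.90, 9.11 and 9.15 in MDVR. Its Abl level after siGATA2 came up to the MDVR control level, and the rises of 2.36 and 1.11 differed by −1.25 (SE 0.20, adjusted p = 4.7e-04). That call depended on the background correction, with −0.06 (adjusted p = 0.783) on the authors' normalized values. TBXAS1, thromboxane synthase, rose by 2.13 and 0.98 (difference −1.15, adjusted p = 0.00666). With the replicate number as a block the difference was −0.71 and was not called (adjusted p = 0.141 within lines, 0.204 across groups).

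Other genes rose in Abl alone. RANBP10, a Ran-binding protein, read 8.52, 8.74 and 8.57 and then 10.63, 10.34 and 10.50 in Abl, and 8.84, 8.84 and 8.50 and then 8.72, 8.70 and 9.02 in MDVR. From similar control levels the Abl arrays separated and the MDVR arrays overlapped, with a rise of 3.68-fold in Abl and an effect of 0.09 (interval −0.15 to 0.33) in MDVR (difference −1.79, SE 0.16, adjusted p = 1.4e-06). ATP1B1, the beta subunit of the sodium pump, read 6.99, 6.69 and 7.03 and then 8.43, 8.48 and 8.21 in Abl, and 13.52, 13.53 and 13.47 and then 13.44, 13.57 and 13.21 in MDVR. The MDVR readings were bright, with 126 tested genes above its siNT mean and the brightest of them at 14.41, and the groups overlapped (difference −1.57, SE 0.15, adjusted p = 1.5e-06). Its second probe gave −2.44, and whether a change is compressed at such brightness was not tested. SEMA6A, a guidance semaphorin, had effects of 1.07 and −0.24 (difference −1.31, adjusted p = 1.1e-05), and ANKRD16, an ankyrin repeat protein, 1.42 and 0.12 (difference −1.30, adjusted p = 8.1e-05). The other ANKRD16 probes gave −0.87 and −0.60.

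In MDVR the genes called alone were other ones. TXNIP, which binds and inhibits thioredoxin, read 10.52, 10.89 and 10.38 on MDVR siNT arrays and 11.52, 11.79 and 12.06 after siGATA2, against 11.05, 11.10 and 11.49 and then 10.72, 11.19 and 10.64 in Abl. The MDVR groups were separate and the Abl groups overlapped, with a rise of 2.28-fold in MDVR and an effect of −0.36 (interval −0.69 to −0.03, adjusted p = 0.0822) in Abl (difference 1.55, SE 0.22, adjusted p = 1.9e-04). IRAK2, a kinase of interleukin 1 and Toll-like receptor signalling, read 5.90, 6.03 and 5.44 and then 7.06, 6.87 and 6.87 in MDVR, reaching the Abl readings of 7.21, 7.09 and 7.26 on siNT and 7.16, 7.59 and 6.84 on siGATA2. Its difference was 1.13 (SE 0.25, adjusted p = 0.00949). With the replicate number as a block it was 0.71 and was not called (adjusted p = 0.151 within lines, 0.16 across groups). GXYLT1, a xylosyltransferase that modifies Notch, rose by 0.90 in MDVR (difference 1.28, adjusted p = 0.00491), and AIMP1, a scaffold of the aminoacyl-tRNA synthetase complex, by 0.73 (difference 1.08, adjusted p = 0.00214). Part of each difference lay in Abl, where the effects were −0.38 for GXYLT1 (adjusted p = 0.12) and −0.36 for AIMP1 (adjusted p = 0.0569). The Abl arrays of both genes were separate although these effects were not called.

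Of the genes that fell in MDVR alone, TM4SF1, a membrane protein of the 4-transmembrane L6 family, read 9.25, 9.29 and 9.25 and then 7.87, 7.39 and 7.59 in MDVR. In Abl it read 6.65, 6.88 and 6.87 and then 6.45, 7.05 and 6.84. It was called in the line with the higher control level, where it fell 3.13-fold, and the difference was −1.62 (SE 0.21, adjusted p = 6.7e-05). AMD1, S-adenosylmethionine decarboxylase of polyamine synthesis, had effects of −0.99 in MDVR and 0.19 in Abl (difference −1.18, adjusted p = 0.00736). The divergent transcript PPP3CA-DT read 11.26, 11.18 and 11.31 and then 10.43, 10.42 and 10.40 in MDVR and between 6.35 and 7.00 on every Abl array (difference −1.11, SE 0.16, adjusted p = 1.9e-04). IL1RN, the interleukin 1 receptor antagonist, fell by 1.34 in MDVR (difference −1.06, adjusted p = 0.00749), a call lost on the authors' normalized values (−0.29, adjusted p = 0.0556).

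Genes called in both lines but moving further in MDVR were fewer. ADGRV1, an adhesion G protein-coupled receptor, read 6.61, 6.52 and 6.62 and then 8.41, 8.34 and 8.53 in MDVR, and 7.90, 8.07 and 7.88 and then 8.47, 8.17 and 8.40 in Abl. The lines met at the same level after siGATA2, and the rise was 3.59-fold in MDVR and 1.32-fold in Abl (difference 1.45, SE 0.16, adjusted p = 9.2e-06). HES6, a helix-loop-helix protein related to the Notch effectors, read 12.19, 12.26 and 12.51 and then 13.65, 13.71 and 13.66 in MDVR, and 11.78, 11.80 and 11.85 and then 12.36, 12.17 and 12.42 in Abl. Its rises of 1.36 and 0.51 differed by 0.85 (SE 0.12, adjusted p = 1.1e-04). MAST4, a serine/threonine kinase, rose by 1.48 in MDVR and 0.40 in Abl (difference 1.08, adjusted p = 6.2e-04), but on the authors' normalized values the difference was 0.08 (adjusted p = 0.598). IGSF3, an immunoglobulin superfamily membrane protein, rose by 1.13 and 0.30 (difference 0.83, adjusted p = 0.00183).

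Among the 8 genes that fell further in MDVR, KLK4, an androgen-induced kallikrein protease of the prostate, read 11.74, 11.78 and 11.87 and then 10.11, 9.87 and 9.66 in MDVR, and 8.97, 9.10 and 9.30 and then 8.01, 7.91 and 7.76 in Abl. The arrays were separate in both lines, and the falls of 3.77-fold in MDVR and 2.34-fold in Abl differed by −0.69 (SE 0.16, adjusted p = 0.0103). AMACR, a racemase of branched-chain fatty acid oxidation that is a tissue marker of prostate cancer, fell by 2.01 in MDVR and 1.32 in Abl (difference −0.70, adjusted p = 0.0145). Its other probes gave −0.25 and −0.68, and the call was lost on the authors' normalized values (−0.29, adjusted p = 0.245). MIA3, which loads collagen for export from the endoplasmic reticulum, had effects of −1.74 and −0.70 (difference −1.04, adjusted p = 0.00201). CALD1, the actin-binding caldesmon, had −1.11 and −0.43 (difference −0.69, adjusted p = 5.4e-04), with −1.95 and −0.29 from its other probes.

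Opposite effects were seen for 50 genes, and for 44 of them the siNT and siGATA2 arrays did not overlap in either line. GHR, the growth hormone receptor, read 7.60, 7.76 and 7.48 and then 8.53, 8.09 and 8.14 in Abl, and 8.20, 8.21 and 8.31 and then 7.35, 7.37 and 7.44 in MDVR. The lines exchanged places, with a rise of 1.55-fold in Abl and a fall of 1.81-fold in MDVR (difference −1.49, SE 0.17, adjusted p = 1.7e-05). RDX, radixin, which links actin to the plasma membrane, read 8.84, 8.85 and 8.74 and then 9.36, 9.59 and 9.66 in Abl, and 10.40, 10.29 and 10.37 and then 9.95, 9.42 and 9.79 in MDVR. It was raised 1.66-fold in Abl and lowered 1.55-fold in MDVR (difference −1.37, SE 0.16, adjusted p = 1.9e-05). ADAMTS1, a secreted metalloprotease on the androgen-induced list, read 9.26, 9.37 and 9.58 and then 9.81, 9.89 and 9.72 in Abl, and 6.31, 6.21 and 6.37 and then 5.42, 5.35 and 5.27 in MDVR. The rise in Abl was small and the fall in MDVR larger (0.40 and −0.95, difference −1.35, adjusted p = 2.1e-05). The membrane protein gene STOM (0.64 and −0.66), the extracellular matrix protein gene RELN (0.59 and −0.55) and the zinc finger gene ZMYM6 (0.65 and −0.42) also rose in Abl and fell in MDVR. A second STOM probe gave a difference of −0.41, against −1.30 from the probe used.

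The reverse pattern, down in Abl and up in MDVR, was led among genes detected on all arrays by CENPQ, a centromere protein, with effects of −0.62 and 0.66 (difference 1.28, adjusted p = 7.7e-04). CASP6, a caspase, read 8.73, 9.02 and 8.51 and then 8.29, 8.14 and 8.25 in Abl, and 8.40, 8.41 and 8.51 and then 8.94, 9.23 and 9.28 in MDVR. The siGATA2 arrays lay below all controls of their own line in Abl and above them in MDVR (difference 1.24, SE 0.17, adjusted p = 1.3e-04), although its other probes gave 0.43 and 0.17. CTSV, the lysosomal protease cathepsin V, had effects of −0.86 and 0.30 (difference 1.16, adjusted p = 6.3e-05). NME5 had −0.88 and 0.32, CCDC85A had −0.40 and 0.84, and CIDEB, a lipid droplet protein, had −0.47 and 0.58.

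SDCBP2 and MMP10, both with opposite effects, were singled out after their values were seen, since each missed detection on some arrays of MDVR siGATA2. SDCBP2, the scaffold protein syntenin-2, had the largest difference of all genes tested. It read 7.83, 8.29 and 8.09 and then 8.70, 8.96 and 8.90 in Abl, and 7.51, 7.95 and 7.78 and then 5.91, 4.89 and 5.67 in MDVR, where 2 of the 3 siGATA2 arrays detected it. The difference was −3.04 (SE 0.28, adjusted p = 1.5e-06), and its other probes gave −2.19 and −1.25. MMP10, the matrix protease stromelysin 2, rose 2.83-fold in Abl and fell 2.02-fold in MDVR (difference −2.51, SE 0.28, adjusted p = 1.3e-05), with detection on 1 of the 3 MDVR siGATA2 arrays.

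Of the called genes, 10 had a group in which the probe was detected on no array, so that only a bound on a change can be given. The bound sets the mean of the brighter group against, on each dim array, the higher of the lowest detected signal and the probe's own. Each such gene entered the test in that line through its brighter group, so the p-values below belong to genes that the filter required to be bright on one side. HEPACAM, a cell adhesion molecule, was at least 3.72-fold lower after siGATA2 in MDVR (adjusted p = 1.7e-07), with group means of 6.96 and 4.73, and its Abl effect was 0.19 (interval −0.23 to 0.60), with detection on 2 of the 3 Abl siNT arrays. TRIM2, a ubiquitin ligase, was at least 3.12-fold higher in MDVR (adjusted p = 3.5e-08) and was also called higher in Abl. In Abl the mitotic kinesin gene KIF4A was at least 4.04-fold lower (adjusted p = 4.2e-09), and ESCO2, which acetylates cohesin during replication, at least 3.33-fold lower (adjusted p = 7.4e-07). In MDVR KIF4A was also called lower, and ESCO2 was not called. RFTN1, raftlin, was at least 1.12-fold lower in MDVR (adjusted p = 0.0205) and rose by 1.26 in Abl. GHRL, the ghrelin gene, was at least 1.37-fold higher in MDVR (adjusted p = 0.0472) and was called lower in Abl. The TRIM2 difference was not called on the authors' normalized values (adjusted p = 0.338).

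The androgen-induced genes did not move as a block. Of 21 androgen-induced genes tested 5 differed (23.8%, against 7.28% of all genes), with ADAMTS1, HERC3, KLK4 and TSC22D3 below 0 in the difference and CENPN above. In Abl 7 of the 21 were higher and 3 lower, where 17.3% and 19.1% of all genes were, and in MDVR 4 were higher and 5 lower, where 13.6% and 12.7% were. TSC22D3, a leucine zipper protein that glucocorticoids also induce, rose 2.84-fold in Abl and 1.99-fold in MDVR (difference −0.51, adjusted p = 0.0127). CENPN, a centromere protein, read 11.15, 11.06 and 11.05 and then 10.26, 10.31 and 10.31 in Abl and overlapped in MDVR (difference 0.81, SE 0.13, adjusted p = 4.7e-04). Of 13 androgen-repressed genes 4 differed (30.8%, against 7.28% of all genes). Most of this list rose in both lines. In Abl 8 of the 13 were higher and 1 lower, beside 17.3% and 19.1% of all genes. In MDVR 9 were higher and 1 lower, beside 13.6% and 12.7%. The median effects were 0.35 and 0.33. PRKD1, protein kinase D1, rose in Abl alone (0.84 against 0.11, adjusted p = 1.6e-04), and ST7 fell in MDVR alone (−0.51 against 0.04, adjusted p = 0.00507). DDC, aromatic amino acid decarboxylase, read 13.19, 13.16 and 13.18 and then 12.97 to 13.02 in Abl, and 9.98, 10.00 and 10.00 and then 10.37, 10.31 and 10.47 in MDVR. The opposite shifts were small, −0.18 and 0.39, and exceeded the narrow spread of the arrays (difference 0.57, SE 0.09, adjusted p = 4.7e-04). ACKR3, an atypical chemokine receptor, had −0.17 and 0.23 (difference 0.40, adjusted p = 0.0193). Of 9 steroid-converting enzymes only AKR1C3 was called (11.1%, near the 7.28% of all genes).

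Of 26 unfolded protein and integrated stress response genes 6 differed (23.1%, against 7.28% of all genes), 4 below 0 and 2 above. In Abl 15 of the 26 were higher and 4 lower, where 17.3% and 19.1% of all genes were. In MDVR 9 were higher and 2 lower, where 13.6% and 12.7% were. DNAJB9, an endoplasmic reticulum chaperone cofactor, rose by 0.91 in Abl and 0.33 in MDVR (adjusted p = 0.00835 for the difference). DDIT3, the stress transcription factor CHOP, and ATF3, another stress-induced factor, were called in Abl alone with effects of 0.76 and 0.39, and DDIT4, an inhibitor of mTOR signalling, rose by 0.59 in Abl and 0.22 in MDVR. ASNS, asparagine synthetase, fell in Abl alone (−0.47 against −0.02, adjusted p = 0.00835), and PDIA4, a disulfide isomerase, fell in both, by 1.38 and 0.81. Of 20 p53 targets 3 differed (15%, against 7.28% of all genes). GDF15, a secreted stress cytokine, read 9.74, 9.96 and 10.03 and then 10.58, 10.64 and 10.64 in Abl, and 12.81, 12.82 and 12.78 and then 12.67, 12.57 and 12.83 in MDVR. It rose where its control level was lower and its MDVR arrays overlapped (difference −0.82, SE 0.12, adjusted p = 1.5e-04). CCNG1, cyclin G1, had 0.22 and −0.34 (difference −0.57, adjusted p = 0.00208, with 0.08 from its other probe and no call on the mean of its probes, −0.24 and adjusted p = 0.306), and CDKN1A, the cyclin-dependent kinase inhibitor p21, had 0.23 and −0.20 (difference −0.42, adjusted p = 0.0345).

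On the remaining lists the shares that differed were near the 7.28% of all genes tested or rested on 2 or 3 genes. Of 22 interferon response genes IRF1 and IFIT2 differed (9.09%), and IRF1, a transcription factor of interferon signalling, had −0.48 in Abl and 0.42 in MDVR (difference 0.90, adjusted p = 0.00682). Of 19 cholesterol genes TM7SF2, a sterol reductase, and INSIG1, which retains the sterol sensor in the endoplasmic reticulum, differed (10.5%), by −0.46 and −0.39. Of 26 fatty acid genes AMACR, ELOVL1 and ACSL1 differed (11.5%). Among 25 epithelial genes 3 differed (12%). CDH1, E-cadherin, rose by 1.21 in Abl and 0.72 in MDVR (difference −0.49, SE 0.09, adjusted p = 0.00174). SPINT2, an inhibitor of membrane serine proteases, read 12.41, 12.26 and 12.32 and then 9.87, 10.00 and 9.80 in Abl, and 12.31, 12.46 and 12.30 and then 10.45, 10.42 and 10.52 in MDVR. From equal controls it was lowered far in both lines, 5.42-fold and 3.72-fold (difference 0.55, SE 0.11, adjusted p = 0.00311). CTNNB1, beta-catenin, fell in MDVR alone (−0.90, difference −0.68, adjusted p = 0.0236), but its other probes gave −0.14 and 0.47, and on the mean of its probes the call was lost (−0.12, adjusted p = 0.648).

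Several calls near the threshold were lost under many of the 27 alternative settings. IFIT2 (0.74), ELOVL1 (−0.54) and PDIA4 (0.57) were each lost under 17 of them, INSIG1 and DDIT4 under 14, ATF3, CDKN1A and HERC3 under 13, DDIT3 and ACSL1 under 12, CTNNB1 under 11 and ACKR3 under 9. Other calls were lost under fewer. Those of ID2, SMAD6, IRAK2, TBXAS1, CIDEB, GHRL, LYAR and SPINT2 were each lost under 3. These were both fits with the replicate number as a block and the test beyond 1.5-fold.

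No member differed at the threshold among 29 hypoxia and glycolysis genes, 19 NRF2 targets, 11 lineage transcription factors and 7 neuroendocrine genes, and against 7.28% of all genes a count of 0 in lists of this size is not far from the background. FOXA1, the pioneer factor that works beside GATA2, had a difference of −0.13 (interval −0.35 to 0.08), and HOXB13, a homeobox factor of the prostate, 0.17 (−0.12 to 0.45). The androgen targets TMPRSS2 and FKBP5 had −0.31 (−0.63 to 0.00) and an interval of −0.34 to 0.34. S100P, a calcium-binding protein, rose 7.59-fold in Abl and 12.4-fold in MDVR, from 5.69, 6.05 and 5.87 to 8.69, 8.76 and 8.93 and from 9.19, 8.53 and 8.57 to 11.99, 12.53 and 12.68. The rises did not differ at the threshold (difference 0.71, interval 0.20 to 1.22, adjusted p = 0.0854), but on the authors' normalized values the difference was 1.92 and was called.

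Some genes could be measured in a single line, 662 in Abl and 691 in MDVR, and so have no tested difference. ID1 is among them. Its brighter probe read 5.87, 6.63 and 5.88 and then 10.37, 10.48 and 10.55 in Abl, and in MDVR it was detected on 0 siNT arrays and 1 siGATA2 array with readings of 4.41 to 5.35. KLK2 and KLK3, the kallikreins whose product includes prostate-specific antigen, were detected only on MDVR siNT. KLK2 read 6.35, 6.44 and 6.29 there and at most 4.89 after siGATA2, and KLK3 read 5.29, 5.44 and 5.64 and at most 5.00. In Abl both were detected on 0 arrays.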

How the data were processed

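Total RNA from 12 samples was hybridised to Illumina BeadChip arrays. Linear, non-normalized intensities of 47323 probes were deposited, each with a detection p-value for every array. The authors' processed log2 values of the same arrays were used as an alternative. The tool lumi is named in the submitters' processing notes, while its settings are not given there. Each authors' column matched the raw column of its own sample best, 12 of 12, and 0 pairs of arrays were identical.

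Intensities were corrected and quantile normalized with neqc (offset 16, negative-control level from the detection p-values) in limma 3.58.1 under R 4.3.3. A linear model with 4 group means over the 12 arrays gave both line effects and their difference, tested with trended empirical Bayes (8 residual and 10.2 prior degrees of freedom) and Benjamini-Hochberg adjustment over 9893 genes. Probes were named through GEO's platform annotation, which gives 1 symbol to 16973 probes, several to 5 and lists no others, with symbols updated through RefSeq gene IDs. The brightest kept probe stood for a gene, 2485 genes had more than 1, and 0 had probes called in both directions. Another 3586 kept probes without a single symbol were fitted apart. The steps were tested on simulated data. The number of arrays limits the precision.

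Genes were named by rule: GATA2, the 4 largest differences of each class and direction and the 6 largest of each opposite class among genes detected on all 12 arrays, the 6 largest with an undetected group, up to 4 members of each list with the smallest adjusted p, and 16 fixed genes. Of the genes the rule names, 1 is not reported here. Further list members called, the marker ACTA2, SDCBP2, MMP10, KLK2 and KLK3 are given beside it. The members and the 17 gene lists were chosen with earlier results of these data known. Motifs were searched on both strands, with GGCGCC and AGAACA searched besides those printed. The 27 alternatives changed background correction, normalization, source of values, detection filter, probe choice, spread estimate, array weights, block and threshold, or left out 1 array.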

Additional observations from a re-analysis of the deposited data

Results flagged for a closer look

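The effect of siGATA2 differed between the lines for 720 genes by limma's test of the difference itself, and each named gene among them is listed here with its difference (MDVR effect minus Abl effect, log2). A change in a line alone is one that was called there and not called in the other line, which may still have moved. Higher in Abl alone were RANBP10 (−1.79), ATP1B1 (−1.57), SEMA6A (−1.31), ANKRD16 (−1.30), GDF15 (−0.82), PRKD1 (−0.73), ATF3 (−0.56), ELOVL1 (−0.54), DDIT3 (−0.53), CDKN1A (−0.42) and INSIG1 (−0.39). Lower in Abl alone were DLGAP5 (1.89), BIRC5 (1.77), NUF2 (1.75), CENPW (1.72), HMMR (1.61), PCNA (1.01), CENPN (0.81), MYC (0.65) and ASNS (0.44). Higher in MDVR alone were TXNIP (1.55), GXYLT1 (1.28), IRAK2 (1.13), AIMP1 (1.08), IFIT2 (0.74), ACSL1 (0.42) and ACKR3 (0.40). Lower in MDVR alone were TM4SF1 (−1.62), AMD1 (−1.18), PPP3CA-DT (−1.11), IL1RN (−1.06), ACTA2 (−0.91), HERC3 (−0.90), CTNNB1 (−0.68) and ST7 (−0.54). Higher in both lines and further in Abl were ID3 (−2.70), VWF (−2.15), CRYAB (−1.68), AKR1C3 (−1.25), TBXAS1 (−1.15), ID2 (−0.94), SMAD6 (−0.80), DNAJB9 (−0.58), TSC22D3 (−0.51), CDH1 (−0.49) and TM7SF2 (−0.46). This class also held DDIT4 (−0.36). Lower in both lines and further in Abl were TOP2A (1.91), CEP55 (1.90), PTTG3P (1.85), PTTG1 (1.80), CDC20 (1.65), FOXM1 (1.28), CDC45 (1.17), GINS2 (1.09), LYAR (0.68), PDIA4 (0.57) and SPINT2 (0.55). Higher in both and further in MDVR were ADGRV1 (1.45), MAST4 (1.08), HES6 (0.85) and IGSF3 (0.83). Lower in both and further in MDVR were MIA3 (−1.04), AMACR (−0.70), KLK4 (−0.69) and CALD1 (−0.69). Up in Abl and down in MDVR were SDCBP2 (−3.04), MMP10 (−2.51), GHR (−1.49), RDX (−1.37), ADAMTS1 (−1.35), STOM (−1.30), RELN (−1.15), ZMYM6 (−1.07) and CCNG1 (−0.57). Down in Abl and up in MDVR were CENPQ (1.28), CCDC85A (1.24), CASP6 (1.24), NME5 (1.20), CTSV (1.16), CIDEB (1.05), IRF1 (0.90) and DDC (0.57). For genes with a group detected on no array a bound on the change in that line stands in place of a difference. ESCO2 was at least 3.33-fold lower in Abl, GHRL was at least 1.37-fold higher in MDVR, HEPACAM was at least 3.72-fold lower in MDVR, KIF4A was at least 4.04-fold lower in Abl, RFTN1 was at least 1.12-fold lower in MDVR and TRIM2 was at least 3.12-fold higher in MDVR. Of these, GHRL and RFTN1 were called in opposite directions in the lines, and KIF4A and TRIM2 the same way in both. Outside the named genes, 54 of the 3586 kept probes without a single symbol differed between the lines, 30 above 0 and 24 below.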

How the results depend on the processing

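Under 11 other choices of background, cyclic loess or authors' values, detection filter, probe, spread estimate and array weights, 553 to 813 genes differed against 720, sharing 511 to 709 with them. Median scaling left 490 (191 below 0, 92 higher in Abl alone, 42 higher in MDVR alone, 32 opposite). A test beyond 1.5-fold left 58 (41 above 0, 17 below), with 14 lower and 6 higher in Abl alone, 2 and 2 in MDVR alone, 26 further in Abl, 2 further in MDVR and 6 opposite. Leaving out 1 array gave 459 to 697 genes, 277 to 416 above 0 and 182 to 281 below. The classes then held 120 to 198 lower and 87 to 151 higher in Abl alone, 40 to 62 lower and 31 to 70 higher in MDVR alone, 85 to 134 further in Abl, 23 to 35 further in MDVR and 32 to 46 opposite. Without Abl siGATA2 replicate 4 the total, both directions and 5 of the 7 class counts fell by over 1.5 times. Between 1 and 3 counts did so without Abl siNT replicate 2, Abl siGATA2 replicate 2 or 3, MDVR siNT replicate 2, 3 or 4, or MDVR siGATA2 replicate 2 or 3, most often the 73 genes higher in MDVR alone (down to 31). Fewer arrays were fitted there, and for median scaling the cause was not tested. The median of all differences, 0.021, moved to between 0.008 and 0.028.

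Same-numbered samples did not all deviate together, but this cannot exclude a shared culture or day, and the labels do not say. Whether the numbers pair the samples is therefore not known. Within each line only the numbers 2 and 3 occur under both treatments. With the replicate block within each line 376 genes differed (214 above 0, 162 below), with 108 and 89 in Abl alone, 37 and 38 in MDVR alone, then 56, 16 and 31. With the replicate block across groups 246 differed (154 and 92), with 71 and 45, 18 and 27, then 46, 8 and 31.

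Of 89 named genes called, 22 kept their call under all 27 alternatives, another 6 did so under each alternative that tested them (the filter for detection on all 12 arrays left them out), and 0 changed direction. The size of a kept difference could still vary. It ranged from 0.94 to 1.99 for TOP2A, 0.84 to 2.00 for CEP55, 0.62 to 1.88 for NUF2 and −1.85 to −0.76 for CRYAB. For PTTG1 it ranged only from 1.59 to 1.88. AKR1C3, MAST4, TRIM2, AMACR, IFIT2 and PDIA4 were not called without background correction or on the authors' values.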

Other observations

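Deviations of the arrays from their group means, correlated over genes, were positive within a set of 4 arrays made of 1 from each group. The set of Abl siNT 1, Abl siGATA2 4, MDVR siNT 2 and MDVR siGATA2 3 had pair correlations of 0.121 to 0.272. Another such set, Abl siNT 3, Abl siGATA2 2, MDVR siNT 4 and MDVR siGATA2 1, had 0.122 to 0.216. The replicate numbers do not follow these sets, no label explains them, and they were not used in any test.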
